A study of Rattus norvegicus with 8 samples.

Results

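Wnt proteins are secreted, lipid-bearing signals that bind Frizzled receptors on a neighbouring cell together with the coreceptors Lrp5 or Lrp6. In the canonical branch, binding stops a complex of Apc, Axin and kinases from marking beta-catenin for destruction, and beta-catenin then enters the nucleus and activates genes with the TCF/LEF factors. R-spondins bind Lgr receptors and strengthen the signal by removing the ligases that take Frizzled off the membrane, whereas Sfrp proteins, Dkk proteins, Wif1 and Notum weaken it from outside the cell. In the mouse lung, Wnt2 and Wnt2b are needed for the lung to form and Wnt7b for its growth, and Wnt signals later act on alveolar epithelial cells.

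The genes described here are the Wnt ligands, receptors and modulators of newborn rat lung, 57 genes of 22093 with a name of their own on the array. A gene was taken in when the platform's annotation gave its row 1 symbol only and that symbol began with Wnt, Fzd, Sfrp, Dkk or Rspo and a digit, or was one of 17 further names: Lrp5, Lrp6, Ctnnb1, Apc, Axin1, Axin2, Lef1, Tcf7, Tcf7l1, Tcf7l2, Wif1, Notum, Nkd1, Lgr4, Lgr5, Lgr6 and Porcn. Only Fzd8 had more than 1 row, and the row with the higher mean was used. Whole lung of newborn rats was measured on 8 arrays, with values on a log2 scale, so that a difference of 1 is a doubling. The titles do not say whether an array holds the tissue of 1 pup, and a lung below means the sample on 1 array. The 4 arrays titled control are written here as titled adequate, for lungs of pups whose dams ate a diet with 1000 IU of vitamin D per kg. The other 4 are written as titled deficient, for lungs of pups whose dams ate the same diet with 0 IU per kg and were mated when their serum 25-hydroxyvitamin D was below 10 ng/ml. All dams lived from 4 weeks of age without ultraviolet light, at 1600 m altitude, on food with 0.5% calcium and 0.4% phosphorus. The labels name no strain and no genotype. They give an age of day 0 and a harvest on day of life 1, and they do not say how many litters a group holds. The p-values below thus measure the spread between these arrays, which may be smaller than that between litters.

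Which group is which is not settled by the deposited sources. Each of the 8 log2 columns in the authors' deposited table matches, to 5e-05 or better, the equally numbered array that the titles put in the other group. Directions below follow the titles, and every one of them would turn if the column names of that table were right. Lung markers were high in both groups, with a mean log2 level of 14.32 to 14.96 per array over 11 surfactant and alveolar type 2 genes. The groups also differed in 21.9% of the 15465 genes tested with limma, in neutrophil, immediate early, type 2 and ciliated cell genes, and in Y-linked genes. The mean level of 4 Y-linked genes was 10.53 and 10.44 on titled adequate 1 and 2, 7.01 and 6.35 on titled adequate 3 and 4, and 5.44 to 5.61 on the arrays titled deficient. The sexes of the pups are not given in the labels, and titled adequate 3 and 4 lay between the levels of the other arrays. Some fits below take this Y-linked level as a covariate. The groups account for much of it (R squared 0.558), so such a fit cannot separate group from Y-linked level well. Calls lost or gained with it do not show an effect of sex, which was not tested.

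Of the 57 Wnt genes, 39 passed the filter on low signal, a mean log2 level of 5.32 over the 8 arrays. Among these, 13 were higher in titled adequate, 3 in titled deficient, and 23 missed the adjusted p of 0.05. Over all genes tested, 13.7% were called higher in titled adequate and 8.24% higher in titled deficient. The Wnt genes thus passed in 33.3% and 7.69% of those tested, the first above and the second near the background, with no test of that difference. Without the filter, 11 of 57 passed toward titled adequate against a background of 8.96%, and 3 toward titled deficient against 6.53%. The 11 were all among the 13 above, but the 3 were other genes (Rspo4, Wnt16 and Wnt5b, all low in signal), and Fzd5, Sfrp2 and Dkk4 did not pass there (adjusted p = 0.0558, 0.0601 and 0.0579), nor did Fzd2 and Sfrp1 (0.0605 and 0.0522). The median difference, titled adequate minus titled deficient, was 0.024 over the Wnt genes tested and 0.018 over all genes tested, with 22 members positive and 17 negative. The members' median was 0.172 with the Y-linked level as a covariate, 0.129 without titled adequate 1 and 2, and -0.084 with arrays centred on their median. By array, the groups did not overlap in 28% of all genes (16.7% with titled adequate above and 11.3% with titled deficient above) and in 12 (30.8%) and 3 (7.69%) of the Wnt genes. Differences ran from -0.59 for Sfrp2 to 1.5 for Rspo1. The call rested on few arrays for some members: leaving out 1 array at a time, 10 of the 16 members passed in all 8 fits, and the count fell to 10 without titled adequate 2 or without titled deficient 2. In whole lung, fewer cells of a type and less RNA per cell cannot be told apart.

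**Figure D1:**
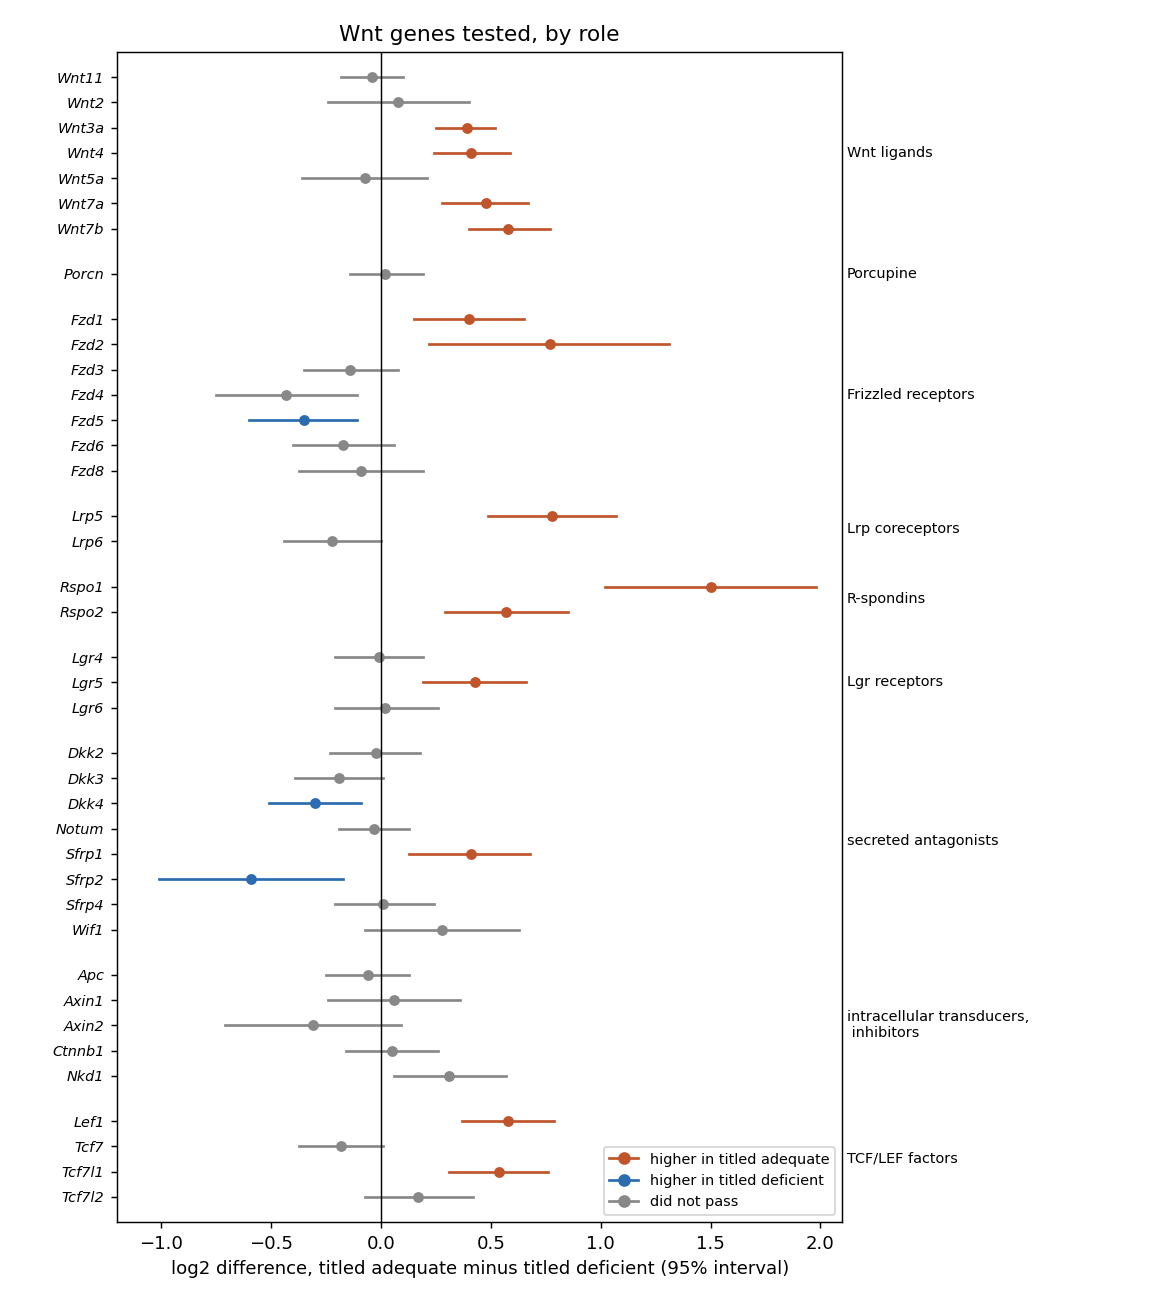
Log2 difference, titled adequate minus titled deficient, for the 39 Wnt genes tested, grouped by role; points are differences and bars their 95% intervals from limma. Rspo1 lies farthest to the right at 1.5, and 3 genes (Fzd5, Dkk4 and Sfrp2) passed on the other side of 0.

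R-spondins and their receptors held the largest difference. Rspo1, a secreted amplifier of Wnt signals, read 10.36, 10.48, 10.19 and 10.85 on titled adequate 1 to 4 and 9.53, 8.95, 8.90 and 8.49 on titled deficient 1 to 4. All 4 lungs titled adequate lay above all 4 titled deficient, and the SDs of the groups were 0.28 and 0.43. Rspo1 was 2.83-fold higher in titled adequate (difference 1.5 on the log2 scale with SE 0.21, adjusted p = 0.00202), and the difference stayed between 1.34 and 1.69 when any 1 array was left out. Rspo2, which the mouse needs for branching of the lung, read 7.65, 7.34, 7.83 and 7.95 against 7.10, 7.19, 7.01 and 7.19. Its groups did not overlap either, and it was 1.48-fold higher in titled adequate (difference 0.57 on the log2 scale with SE 0.13, adjusted p = 0.0135). Without titled adequate 3 and 4, which read highest, the Rspo2 difference was 0.37 and did not pass (adjusted p = 0.0571), and with the Y-linked level as a covariate it was 0.89. Rspo3 and Rspo4 lay below the filter, with means of 5.30 and 5.26 for Rspo3 in titled adequate and titled deficient.

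Among the receptors of R-spondins, Lgr5, itself a Wnt target in gut and other tissues, was 1.35-fold higher in titled adequate (difference 0.43 on the log2 scale with SE 0.11, adjusted p = 0.0195). It read 6.44, 6.64, 6.65 and 6.47 against 6.38, 6.14, 5.90 and 6.07. Titled deficient 1 lay just under the lowest lung titled adequate, and the groups did not overlap. Lgr4 and Lgr6 did not pass, with differences of -0.01 (95% interval -0.21 to 0.19) and 0.02 (-0.21 to 0.26). Lgr5 kept its call in each fit that left out 1 array but not with the Y-linked level as a covariate (0.44 with a wider SE of 0.16, adjusted p = 0.114). It also missed the threshold without titled adequate 3 and 4 (adjusted p = 0.0653) and without titled adequate 1 and 2 (adjusted p = 0.0595).

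Markers of mesothelial cells, which line the lung surface, were read beside Rspo1. Msln, the mesothelin gene, was 2.6-fold higher in titled adequate (difference 1.38 on the log2 scale with SE 0.21, adjusted p = 0.00293), reading 8.23, 8.42, 9.06 and 8.80 against 7.63, 7.37, 7.20 and 6.80. It was the only 1 of 6 mesothelial markers tested that passed, while Upk1b and Krt19, also higher on average in titled adequate, came close (0.78, adjusted p = 0.0502, and 0.65, adjusted p = 0.0581). Upk3b, Lrrn4 and Muc16 differed by -0.14, 0.10 and -0.19. Wt1 and Bnc1 lay below the filter. The mean of the list per array ran from 8.5 to 8.86 in titled adequate and from 7.68 to 8.68 in titled deficient. The part of mesothelial cells in the Rspo1 difference was not tested.

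Of 19 Wnt ligand genes, 4 were higher in titled adequate, 0 in titled deficient, 3 missed the threshold and 12 lay below the filter; at an unadjusted p under 0.05 there were also 4. Wnt7b, an epithelial ligand of the growing mouse lung, read 6.05, 6.03, 5.77 and 5.80 on the lungs titled adequate and 5.31, 5.38, 5.23 and 5.41 on those titled deficient. It was 1.5-fold higher in titled adequate (difference 0.58 on the log2 scale with SE 0.08, adjusted p = 0.00198). The groups were separate, and titled adequate 1 and 2 read above titled adequate 3 and 4. Wnt7a, its closest relative, read 5.95, 5.80, 5.93 and 6.0 against 5.57, 5.34, 5.59 and 5.27 and was 1.39-fold higher (difference 0.48 on the log2 scale with SE 0.09, adjusted p = 0.00571).

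Wnt4, a ligand with canonical and other actions, read 6.69, 6.58, 6.42 and 6.51 against 6.18, 6.20, 6.13 and 6.03, 1.33-fold higher in titled adequate (adjusted p = 0.0063). With the Y-linked level as a covariate Wnt4 did not pass (0.28, adjusted p = 0.1). Wnt3a, a strong activator of beta-catenin, read 5.58, 5.65, 5.59 and 5.55 against 5.07, 5.25, 5.26 and 5.25. The lungs titled deficient lay below the filter level for Wnt3a, so its fold is a bound, at least 1.21-fold (difference 0.39 on the log2 scale with SE 0.06, adjusted p = 0.00356). Wnt3a thus passed the level filter only through the lungs titled adequate. In the fit without the filter its adjusted p was 0.00484. These 4 ligands, and also Lgr5 and Dkk4, had low signals. The 1153 negative control rows had medians of 6.82 to 7.22 per array, above all values of these 6 genes, and the 23 background rows had means of 3.71 to 3.92.

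The other 3 ligands tested did not pass. Wnt2, a mesenchymal ligand, read 10.37, 10.07, 10.14 and 10.49 against 10.37, 10.40, 10.05 and 9.90, with a difference of 0.08 (95% interval -0.24 to 0.40). Wnt5a, the main ligand of the planar polarity branch, differed by -0.07 (-0.36 to 0.21) and Wnt11, another ligand of that branch, by -0.04 (-0.18 to 0.10). For both, the lungs of the groups overlapped, and Wnt11, with means of 5.79 and 5.83, was as low as the ligands that passed. Porcn, the enzyme that attaches the lipid to Wnt proteins before secretion, differed by 0.02 (-0.14 to 0.19). Below the filter were Wnt1, Wnt2b, Wnt3, Wnt5b, Wnt6, Wnt8a, Wnt8b, Wnt9a, Wnt9b, Wnt10a, Wnt10b and Wnt16, along with Fzd9, Fzd10, Rspo3, Rspo4, Dkk1 and Sfrp5. Of these 18 genes, 16 had the higher mean in titled deficient, with differences of -0.23 to 0.04. Array medians leaned the same way, at 5.58 to 5.65 in titled deficient against 5.50 to 5.59 in titled adequate. Whether low signals of other genes lean alike was not tested, so this count is not a trait of the Wnt genes alone. The filter kept these 18 genes out of the test. In the fit without the filter, Rspo4 (-0.21, adjusted p = 0.0282), Wnt16 (-0.22, adjusted p = 0.0343) and Wnt5b (-0.23, adjusted p = 0.0486) passed toward titled deficient.

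Lrp5, one of the pair of Wnt coreceptors, read 11.27, 11.05, 10.79 and 10.90 in titled adequate and 10.26, 10.31, 10.35 and 9.97 in titled deficient. The groups were well apart, and Lrp5 was 1.72-fold higher in titled adequate (difference 0.78 on the log2 scale with SE 0.13, adjusted p = 0.00392). It passed without any 1 array (adjusted p at most 0.0127) but not with the Y-linked level as a covariate (0.54, SE 0.16, adjusted p = 0.0639). Lrp6, its partner, read 13.07, 13.05, 13.01 and 12.84 against 13.19, 13.20, 13.09 and 13.38. Its groups did not overlap either, in the opposite direction, but the difference did not pass (-0.22, SE 0.10, adjusted p = 0.136).

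Frizzled genes went both ways. Of 9, 2 were higher in titled adequate, 1 in titled deficient, 4 missed the threshold and 2 lay below the filter. Fzd1 read 9.44, 9.28, 9.11 and 9.26 against 9.0, 8.86, 9.01 and 8.63 and was 1.32-fold higher in titled adequate (adjusted p = 0.0325). Its groups did not overlap. Fzd2 read 13.25, 13.35, 12.52 and 12.87 against 12.00, 12.34, 12.81 and 11.77, with titled deficient 3 inside the range of the other group. Fzd2 was 1.70-fold higher in titled adequate (difference 0.77 on the log2 scale with SE 0.24, adjusted p = 0.049), with the widest spread of any Wnt gene tested in both groups, an SD of 0.38 and 0.45. Fzd5 read 9.49, 9.16, 9.19 and 9.54 against 9.63, 9.64, 9.73 and 9.79. It was 1.28-fold higher in titled deficient (difference -0.35 on the log2 scale with SE 0.11, adjusted p = 0.0447), and no lungs overlapped. Fzd4, which in vessels also serves as a receptor for norrin, had a like difference that did not pass (-0.43, SE 0.14, adjusted p = 0.058).

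These 3 Frizzled calls were fragile. Fzd1 lost its call without titled adequate 1, 2 or 4 or titled deficient 2 (adjusted p = 0.065 to 0.0781), and Fzd2 without titled adequate 1, 2 or 4 or titled deficient 1, 2 or 4 (0.0755 to 0.113). Fzd5 lost it without titled adequate 2 or 3 or any 1 array titled deficient (0.0741 to 0.107). Fzd4, conversely, passed without titled deficient 4 (adjusted p = 0.0311). With the Y-linked level as a covariate, the difference of Fzd2 was 0.30 (adjusted p = 0.583), that of Fzd1 0.26 (adjusted p = 0.318) and that of Fzd5 -0.30 (adjusted p = 0.271). Without titled adequate 1 and 2, the arrays with the highest Y-linked level, Fzd2 differed by 0.46 (adjusted p = 0.28). Fzd3, Fzd6 and Fzd8 differed by -0.14, -0.17 and -0.09 and did not pass.

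**Figure D2:**
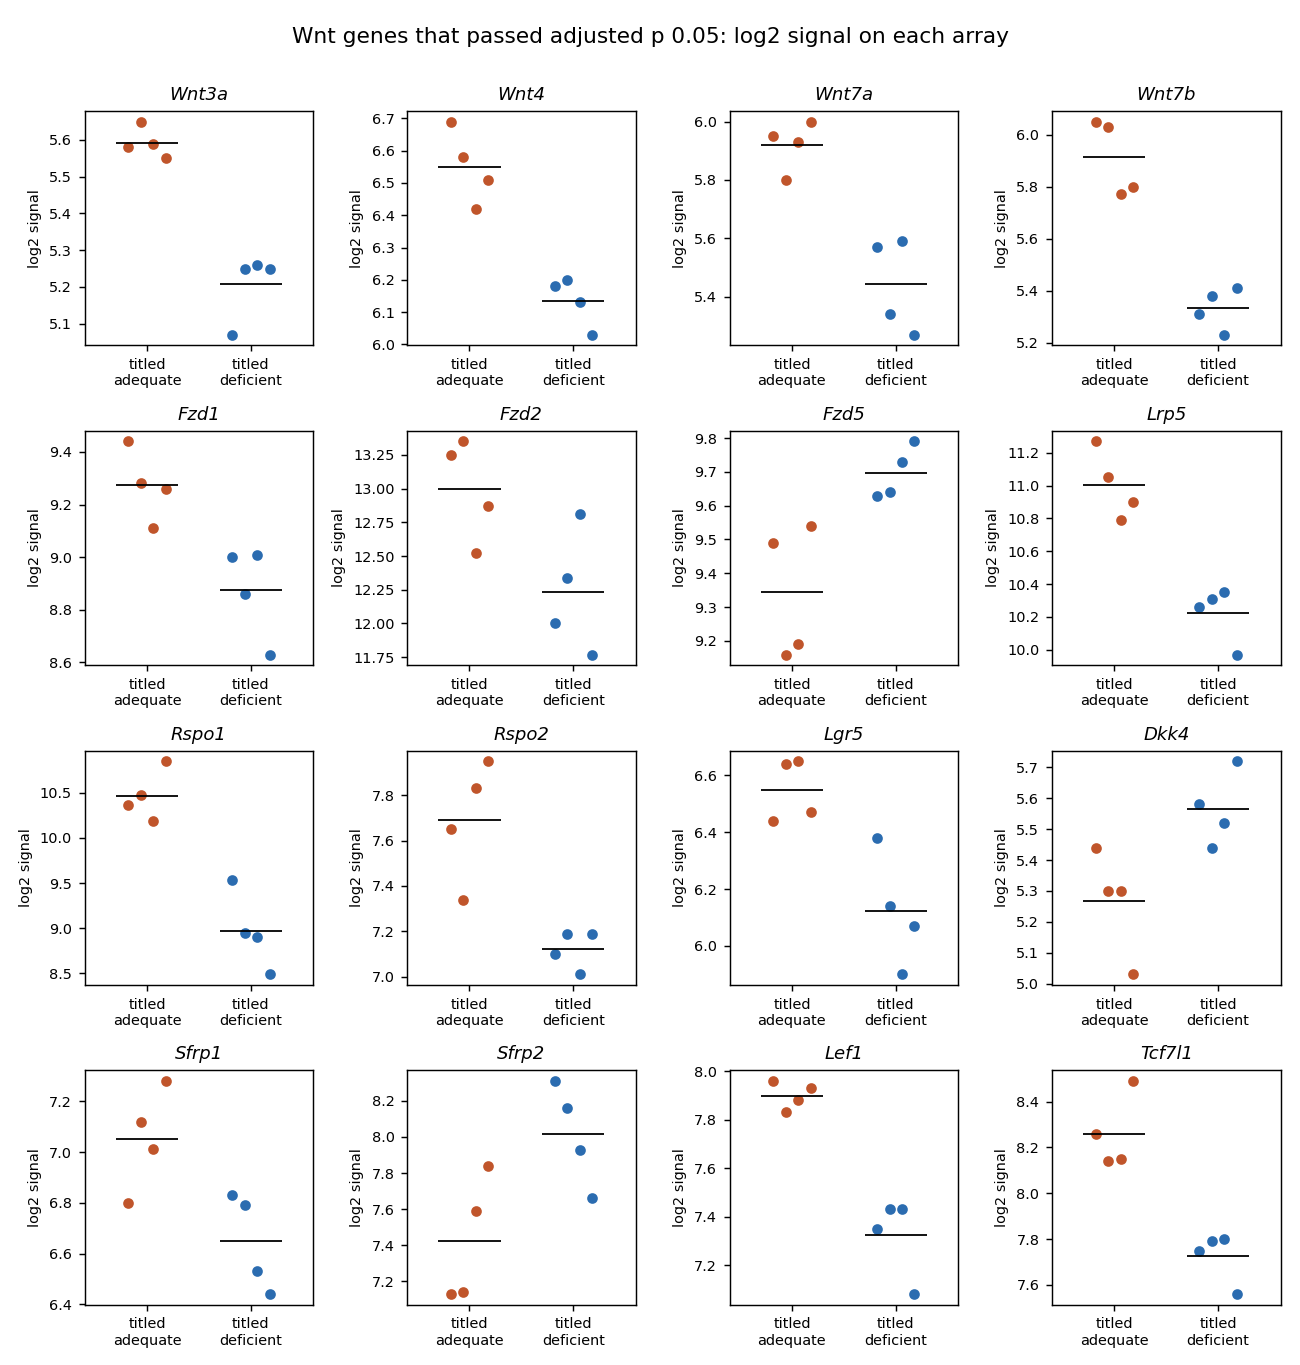
Log2 signal on each of the 8 arrays for the 16 Wnt genes that passed; points are arrays, in replicate order from left to right, lines are group means, and each panel has its own axis that does not start at 0. The groups do not overlap in 13 panels, and in those of Fzd2, Sfrp1 and Sfrp2 they do.

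Secreted antagonists also moved in opposite directions. Of 10, 1 was higher in titled adequate, 2 in titled deficient, 5 missed the threshold and 2 lay below the filter. Sfrp1, which binds Wnt proteins outside the cell, read 6.80, 7.12, 7.01 and 7.28 against 6.83, 6.79, 6.53 and 6.44. It was 1.33-fold higher in titled adequate (difference 0.41 on the log2 scale with SE 0.12, adjusted p = 0.043), and titled adequate 1 lay within the other group. Sfrp2, of the same family, read 7.13, 7.14, 7.59 and 7.84 against 8.31, 8.16, 7.93 and 7.66. It was 1.51-fold higher in titled deficient (difference -0.59 on the log2 scale with SE 0.19, adjusted p = 0.0492), and titled adequate 4 overlapped titled deficient 4. Dkk4, which blocks Lrp coreceptors, read 5.44, 5.30, 5.30 and 5.03 against 5.58, 5.44, 5.52 and 5.72. Titled adequate 1 and titled deficient 2 read almost alike. Because the lungs titled adequate averaged below the filter level, Dkk4 was at least 1.16-fold higher in titled deficient (difference -0.30 on the log2 scale with SE 0.09, adjusted p = 0.0477).

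None of these 3 calls held in all fits that left out 1 array. Sfrp1 lost its call without titled adequate 2, 3 or 4 or titled deficient 2, 3 or 4 (adjusted p = 0.057 to 0.103). Sfrp2 lost it without titled adequate 1, 2 or 3 or titled deficient 1, 2 or 3 (0.0566 to 0.119), and Dkk4 without any 1 array except titled adequate 1 (0.057 to 0.103). Dkk4 passed the level filter only through the lungs titled deficient. With the Y-linked level as a covariate, Sfrp2 differed by -0.13 (adjusted p = 0.732), Sfrp1 by 0.57 (adjusted p = 0.0669) and Dkk4 by -0.48 (adjusted p = 0.0359). Wif1, a secreted Wnt-binding inhibitor of distal lung epithelium, read 9.0, 9.0, 9.36 and 9.62 against 9.17, 9.08, 8.88 and 8.75 and did not pass (difference 0.28, adjusted p = 0.224). With that covariate Wif1 passed (0.68, adjusted p = 0.0274). Notum, an enzyme that strips the lipid from Wnt proteins, differed by -0.03 and did not pass, and neither did Dkk2, Dkk3 and Sfrp4.

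Inside the cell, 0 of the 5 Wnt genes grouped as transducers and inhibitors passed in either direction with limma. Of them, 1 had an unadjusted p under 0.05. Ctnnb1, which encodes beta-catenin, differed by 0.05 (95% interval -0.16 to 0.26), and Apc and Axin1, scaffolds of the complex that destroys it, by -0.06 (-0.25 to 0.13) and 0.06 (-0.24 to 0.36). Axin2, a scaffold gene that beta-catenin switches on as feedback, read 10.41, 10.16, 9.74 and 9.79 against 10.17, 10.34, 10.70 and 10.12. Its groups overlapped (difference -0.31, SE 0.18, adjusted p = 0.234), with titled adequate 3 and 4 lowest, and with the Y-linked level as a covariate it passed toward titled deficient (-0.73, adjusted p = 0.046). Nkd1, a feedback inhibitor that acts on Dishevelled, read 12.01, 12.16, 12.13 and 12.26 against 11.82, 11.99, 11.92 and 11.57. Its groups were separate, but the difference did not pass (0.31, SE 0.11, adjusted p = 0.0731). Other intracellular genes, from the list of partners described below, did pass. Toward titled adequate, Dvl2 differed by 0.34 (adjusted p = 0.0395), Csnk1e by 0.49 (0.0341) and Bcl9l by 0.66 (0.00992). Tle1 and Tle3 also passed there (0.0255 and 0.0468), and Pygo1, Daam1 and Rnf146 passed toward titled deficient. Of Dvl2, Csnk1e, Bcl9l, Tle1 and Tle3, only Bcl9l passed in all 8 fits without 1 array. Gsk3a and Gsk3b did not pass.

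Of the 4 TCF/LEF genes, 2 were higher in titled adequate. Lef1, a factor that is also a target of the pathway, read 7.96, 7.83, 7.88 and 7.93 against 7.35, 7.43, 7.43 and 7.08. It was 1.49-fold higher in titled adequate (difference 0.58 on the log2 scale with SE 0.09, adjusted p = 0.00377). Tcf7l1, mostly a repressor where beta-catenin is absent, read 8.26, 8.14, 8.15 and 8.49 against 7.75, 7.79, 7.80 and 7.56 and was 1.45-fold higher (difference 0.54 on the log2 scale with SE 0.10, adjusted p = 0.00692). The 2 groups were apart for both genes, and both passed in every alternative fit in which they were tested. Tcf7 and Tcf7l2 differed by -0.18 and 0.17 and did not pass.

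**Figure D3:**
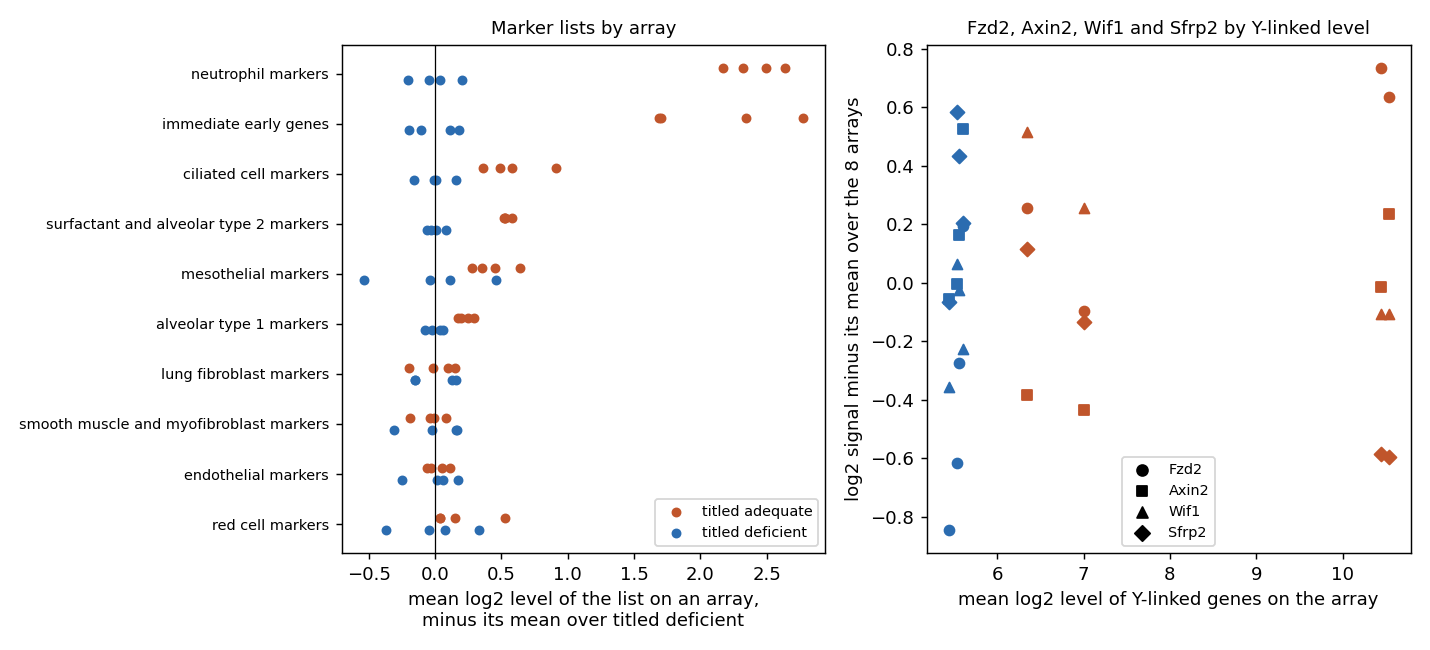
Left, the mean log2 level of marker lists on each array, minus the mean over the arrays titled deficient; right, log2 signal of Fzd2, Axin2, Wif1 and Sfrp2 on each array, minus the gene's mean, against the mean level of 4 Y-linked genes. Neutrophil and immediate early genes separate the groups most, and titled adequate 1 and 2 stand at the right with Y-linked levels of 10.53 and 10.44.

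Other genes of the pathway were read from a list of partners, of which 60 were tested. Of these, 14 (23.3%) were higher in titled adequate and 4 (6.67%) higher in titled deficient, with a median difference of 0.14. Over all genes tested the shares were 13.7% and 8.24%. Prickle1, a planar polarity gene, was 1.86-fold higher in titled adequate (difference 0.90 on the log2 scale with SE 0.08, adjusted p = 2.63e-04), reading 8.24, 8.38, 8.49 and 8.30 against 7.48, 7.49, 7.52 and 7.34. Its relative Prickle2 was 1.51-fold higher and Invs, which encodes inversin, a ciliary protein that acts on Dishevelled, 1.43-fold higher. Rnf43 and Znrf3, the ligases that remove Frizzled from the membrane and that R-spondins counter, were 1.80-fold (difference 0.85 on the log2 scale with SE 0.08, adjusted p = 2.63e-04) and 1.83-fold higher (difference 0.88 on the log2 scale with SE 0.16, adjusted p = 0.00615). Rnf43 read 7.90, 7.85, 7.98 and 8.10 against 7.05, 7.18, 7.09 and 7.13. Znrf3 read 10.19, 9.71, 9.90 and 10.37 against 9.36, 9.21, 9.25 and 8.85. In both, every lung titled adequate lay above every lung titled deficient, as in Rspo1 and Lgr5.

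Toward titled deficient, Pygo1, a nuclear cofactor of beta-catenin, was 1.54-fold higher (difference -0.62 on the log2 scale with SE 0.09, adjusted p = 0.00236) and Daam1, which links Dishevelled to the cytoskeleton, 1.32-fold higher (adjusted p = 0.013). Rnf146, which targets Axin for destruction, was 1.35-fold higher there (adjusted p = 0.0284) but lost its call when titled adequate 3, titled adequate 4, titled deficient 2 or titled deficient 4 was left out. Celsr3, a polarity cadherin gene, was 1.12-fold higher (adjusted p = 0.046) and passed in 0 of the 8 fits without 1 array. The number of partners called was 9 without titled deficient 2 and 10 without titled adequate 1 and 2 together.

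**Figure D4:**
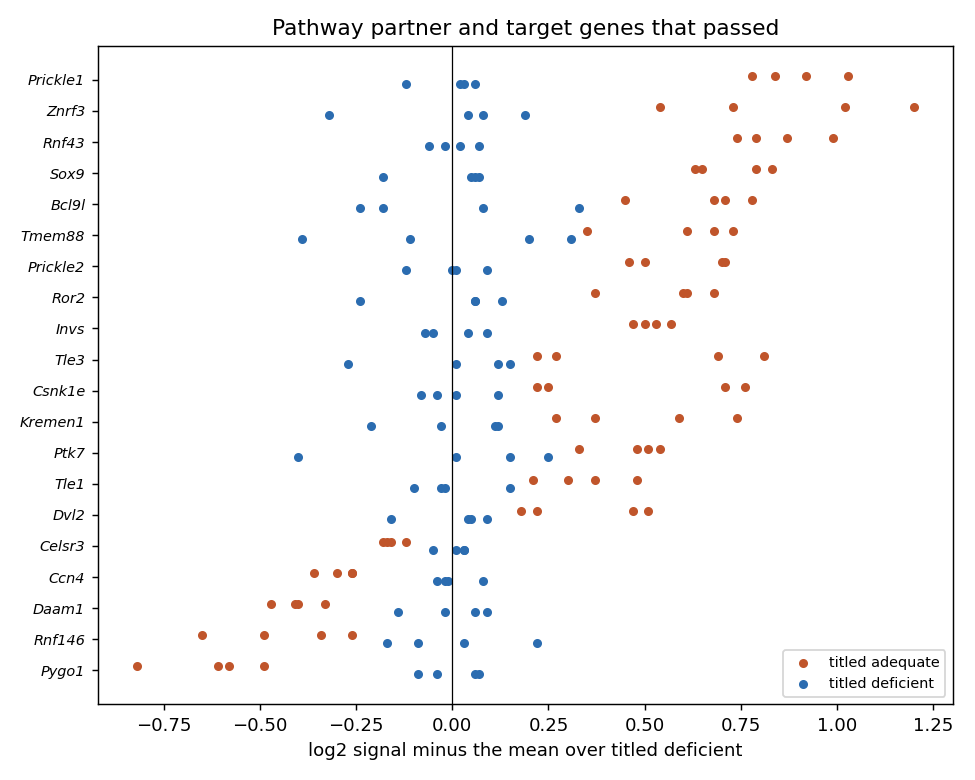
Log2 signal on each array, minus the mean over the arrays titled deficient, for the partner and target genes that passed and are not among the 57. Prickle1 lies at the top, with all arrays titled adequate to the right of all arrays titled deficient, and Pygo1 at the bottom with the order turned.

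Genes that beta-catenin is known to switch on were read from a list of targets. Of 22 tested, 5 (22.7%) were higher in titled adequate and 1 (4.55%) higher in titled deficient, and the median difference was 0.02. With the Y-linked level as a covariate 10 passed, 5 in each direction, while over all genes 9.09% passed toward titled adequate and 4.32% toward titled deficient. In that fit Lef1, Znrf3, Rnf43, Tnfrsf19 and Sox9 were higher in titled adequate, and Axin2, Ccnd1, Ccn4, Fst and Mycn in titled deficient. Of the 5 higher in titled adequate without the covariate, Rnf43, Znrf3, Lef1 and Lgr5 were described above. The other was Sox9, a factor of distal lung epithelium and of cartilage, which read 8.95, 8.99, 8.79 and 8.81 against 8.21, 8.22, 8.23 and 7.98 and was 1.66-fold higher (adjusted p = 0.00118). Ccn4, a matricellular gene also called Wisp1, was 1.23-fold higher in titled deficient (difference -0.29 on the log2 scale with SE 0.06, adjusted p = 0.0102). Axin2, Nkd1, Notum and Sp5, which follow the pathway in many tissues, did not pass, and Sp5 differed by -0.00 (95% interval -0.20 to 0.20). Ccnd1 and Myc, whose transcription answers to many other signals too, differed by -0.42 and 0.12 and did not pass.

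Promoters are shown for Axin2, Nkd1 and Tcf7, which carry letters of the TCF/LEF consensus, and for Rspo1 and Lef1, 2 of the genes with the clearest differences. RefSeq windows on the GRCr8 build, from 250 bases before to 50 after the start of the gene, were at hand for 39 of the 57 genes. They were searched on both strands for the letters CTTTGAA or CTTTGAT and also for CTTTGTA or CTTTGTT, and each match is in capitals. The windows lie at chr10:94398535-94398834 (plus strand), chr19:34722797-34723096 (minus), chr10:36954230-36954529 (minus), chr5:142536040-142536339 (plus) and chr2:222340463-222340762 (plus), and each is written 5′ to 3′ on the strand of its gene.
Axin2: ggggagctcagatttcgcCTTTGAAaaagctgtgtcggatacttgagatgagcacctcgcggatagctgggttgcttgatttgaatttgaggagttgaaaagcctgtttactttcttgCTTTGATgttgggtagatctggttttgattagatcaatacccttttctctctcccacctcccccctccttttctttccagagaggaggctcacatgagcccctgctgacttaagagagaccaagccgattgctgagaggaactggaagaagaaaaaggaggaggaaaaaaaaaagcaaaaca
Nkd1: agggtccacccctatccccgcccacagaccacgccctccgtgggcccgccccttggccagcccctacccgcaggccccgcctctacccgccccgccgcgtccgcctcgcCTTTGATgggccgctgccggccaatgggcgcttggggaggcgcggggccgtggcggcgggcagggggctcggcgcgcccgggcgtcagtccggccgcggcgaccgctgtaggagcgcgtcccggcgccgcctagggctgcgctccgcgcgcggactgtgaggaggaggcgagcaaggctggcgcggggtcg
Tcf7: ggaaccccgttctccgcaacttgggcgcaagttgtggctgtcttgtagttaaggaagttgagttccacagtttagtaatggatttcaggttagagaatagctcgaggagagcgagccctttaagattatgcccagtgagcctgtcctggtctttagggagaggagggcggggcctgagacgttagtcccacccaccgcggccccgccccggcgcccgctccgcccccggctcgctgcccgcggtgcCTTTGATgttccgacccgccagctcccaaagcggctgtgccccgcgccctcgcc
Rspo1: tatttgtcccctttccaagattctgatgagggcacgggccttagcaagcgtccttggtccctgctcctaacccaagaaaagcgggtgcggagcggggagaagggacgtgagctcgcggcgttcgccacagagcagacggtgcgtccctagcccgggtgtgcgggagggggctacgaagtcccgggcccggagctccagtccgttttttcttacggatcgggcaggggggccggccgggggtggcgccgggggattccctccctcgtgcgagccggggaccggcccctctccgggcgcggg
Lef1: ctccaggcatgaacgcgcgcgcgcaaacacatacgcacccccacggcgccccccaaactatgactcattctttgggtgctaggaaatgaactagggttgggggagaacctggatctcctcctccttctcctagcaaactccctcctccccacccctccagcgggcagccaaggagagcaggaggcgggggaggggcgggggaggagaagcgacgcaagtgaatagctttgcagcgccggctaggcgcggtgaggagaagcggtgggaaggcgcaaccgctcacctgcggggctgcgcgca
Counted from the start site, the matches begin at -232 and -132 in Axin2, at -141 in Nkd1 and at -4 in Tcf7. A match stood in 7 of the 39 windows (17.9%), against 17.1% of 33469 RefSeq windows of this length, so the Wnt genes hold such letters about as often as other genes. The other 4 windows with a match belong to Wnt3, Wnt8a, Dkk1 and Sfrp5, all below the filter. None of the 9 windows of genes that passed had one, and no match says only that these letters are not in this window.

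Marker lists moved with the groups beside these results, against background shares of 13.7% higher in titled adequate and 8.24% higher in titled deficient. Neutrophil markers were higher in titled adequate for 11 of 13 genes, with a mean level per array of 8.75 to 9.22 against 6.38 to 6.79, and immediate early genes for 16 of 16, with 10.45 to 11.54 against 8.57 to 8.95. Surfactant and type 2 markers were higher for 7 of 11 (14.90 to 14.96 against 14.32 to 14.46) and ciliated cell markers for 7 of 11 (8.78 to 9.33 against 8.26 to 8.58). Type 1 markers were higher for 3 of 10 and lower for 1. Fibroblast markers were higher for 3 of 13 and lower for 1, with overlapping ranges of 11.75 to 12.10 and 11.80 to 12.11, and the 3 were Tcf21, Pdgfra and Plin2. Smooth muscle and myofibroblast markers passed for 0 of 10 genes with limma (3 at an unadjusted p under 0.05), endothelial markers for 1 of 12, lower, and red cell markers for 1 of 9 in each direction. Cartilage markers passed for 1 of 5 in each direction, the higher being Sox9, and heart muscle markers for 1 of 8, lower. The part of these cell types in the differences of the Wnt genes was not tested.

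In the authors' deposited table, 12 of the 57 genes are listed, and they are 12 of the 13 called higher in titled adequate here, all but Sfrp1. The signed fold there was 2.77 for Rspo1, 1.73 for Lrp5, 1.68 for Fzd2 and 1.30 for Wnt3a, the last being the smallest among the 12 in the authors' deposited table. By the column names of the authors' deposited table these folds are toward the deficient group, the reverse of the titles.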

How the data were processed

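Whole-lung RNA from newborn rats was measured on 8 Affymetrix arrays of 1 colour. The authors deposited log2 signals, made per the labels by SST-RMA at gene level in Expression Console, which brings the arrays to a like distribution. Software version and build are not given. Array medians lay between 5.50 and 5.65. From the authors' deposited table came a signed fold score (group means divided, turned to a negative reciprocal under 1), while its log2 columns were used to compare names.

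Of 70580 rows, 1738 controls were left out. From the 23446 rows with 1 symbol, the brightest on average was kept for each gene, and means below percentile 30, 5.32, were not tested. limma 3.58.1 (R 4.3.3) compared 4 arrays with 4 in 15465 genes by lmFit and eBayes, trend on, no covariate. Tests were 2-sided, and p-values were adjusted by Benjamini-Hochberg across all genes tested. A fold is 2 raised to the size of the log2 difference. For the folds of Wnt3a and Dkk4, signals under 5.32 were first lifted to that level. The steps were tested on simulated data. Groups and replicate numbers came from titles. Alternatives changed the filter, row choice, normalization, variance trend, block, Y-linked covariate and arrays left out. Members, gene lists, alternatives and the rule for named genes (members that passed in full, leading genes of other lists) were chosen with earlier results of these data known.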

Additional observations from a re-analysis of the deposited data

Results flagged for a closer look

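In 114 groups of 4 arrays (57 genes in both groups), 4 arrays stood apart from the other 3 by Dixon's test, and chance alone marks about 1 group in 20. Axin1 read 9.39 on titled deficient 4, against 9.79 to 9.86 on the other 3 arrays titled deficient. Wnt3a read 5.07 on titled deficient 1, against 5.25 to 5.26. Fzd10 read 4.32 on titled adequate 3, against 4.52 to 4.55, and Wnt9a read 5.0 on titled deficient 2, against 5.12 to 5.14. Fzd10 and Wnt9a lay below the level filter.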

How the results depend on the processing

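Of the 16 Wnt genes called, 6 passed in each of the 19 alternatives in which they were tested: Rspo1, Lef1 and Tcf7l1 in 19, and Wnt3a, Wnt7a and Wnt7b in 18, since the filter at percentile 50 (6.69) removed them. No called gene changed sign in any alternative. The number called was 16. It was 10 with the stricter filter, 10 with the Y-linked level as a covariate and 9 with the replicate number as a block, and 10 to 13 without 1 array. The number higher in titled adequate, 13, was 8 with the stricter filter, 8 with the covariate and 10 to 12 without 1 array. The number higher in titled deficient, 3, was 1 after a second quantile normalization over all transcript clusters, 1 after cyclic loess, 1 without a variance trend, 1 without titled adequate 1 and 2, 6 with arrays centred on their median, 0 with the block and 0 to 2 without 1 array. With limma, 4 members were higher in titled deficient at an unadjusted p under 0.05, also with the block. Centring moved the median of all genes by -0.108 and that of the Wnt genes to -0.084. With it Fzd4, Dkk3 and Tcf7 passed, and Fzd1, Fzd2 and Sfrp1 did not. The median of the Wnt genes was 0.172 with the covariate, 0.129 without titled adequate 1 and 2, and -0.005 to 0.058 without 1 array. Partners called, 18, were 9 with the block, 9 with the covariate, 10 without titled adequate 1 and 2, and 9 to 15 without 1 array. Targets called, 6, were 10 with the covariate. Over all genes, 3390 calls became 1758 with the block, 2074 with the covariate and 2178 to 3134 without 1 array, lowest without titled deficient 2. The share of calls higher in titled adequate, 62.4%, was 75.8% after loess and 32.9% after centring. Arrays with the same replicate number did not deviate together (correlations of -0.17, 0.04, -0.35 and -0.28 over genes). With 4 arrays per group this check cannot exclude that equal numbers share a litter or a processing step. The cause of these changes was not tested. Signals near the background limit what the array shows for the ligands that passed, Wnt11, the ligands below the filter, Lgr5 and Dkk4.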
